A study of Mus musculus with 10 samples.

Results

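The lipogenesis and SREBP pathway was followed in mouse gastrocnemius muscle through 8 genes: Srebf1, Srebf2, Insig1, Acaca, Acacb, Fasn, Scd1 and Scd2. They were chosen by gene symbol from the 37947 gene symbols of the deposited RNA sequencing table, all 8 were found, and together they held 30 of its 92251 rows. Each gene was represented by 1 row, an annotated transcript, the one whose mean across the 10 libraries was highest, a choice selected on level and not on age. The list itself was drawn up with earlier results of these data known, so the age differences below are descriptions of these genes and not an independent test of the pathway.

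The libraries came from male C57BL/6 mice, 5 of them 6 months old (young) and 5 of them 24 months old (aged), with no treatment or genetic change named in the labels. The gastrocnemius was taken whole, so each library holds RNA of muscle fibers together with fat, nerve, vessel, connective tissue and blood cells, and fewer cells of a type cannot be told apart from less RNA per cell. Muscle fiber markers were present throughout, with a summed level of 73100 to 94200 FPKM (fragments per kilobase of transcript, scaled to library depth) in young and 64900 to 94300 FPKM in aged libraries. Depth ran from 19886391 to 34554359 reads per library. The values are log2 FPKM, and 0 stands for any FPKM up to 1. Both libraries numbered 3 stood apart. They were the deepest, yet 38.0% (young 3) and 32.4% (aged 3) of the rows were above 0 in them, against 42.1% to 46.9% in the other 8 libraries, and aged 3 was the lowest of the 10 libraries at 39.8% of all genes tested. At Srebf1 their levels fell from the 3′ end of the gene to its 5′ end, a pattern examined at that gene only. Results that rest on these libraries are also given without them.

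Sterol regulatory element-binding proteins are transcription factors made as precursors in the endoplasmic reticulum membrane. SCAP escorts them to the Golgi, where proteases release the active part, and INSIG proteins hold the complex back when sterols are abundant. SREBP-1, the product of Srebf1, is best known for driving fatty acid synthesis in response to insulin, and SREBP-2, the product of Srebf2, for driving cholesterol synthesis and uptake. Acetyl-CoA carboxylases make malonyl-CoA, fatty acid synthase builds palmitate from it, and stearoyl-CoA desaturases place the first double bond. In muscle, the malonyl-CoA made by ACC2, the product of Acacb, is known mainly as a brake on mitochondrial fatty acid uptake.

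The start regions of 3 genes are shown because the age differences described below concern Srebf1 and Fasn, and because Insig1 is a textbook SREBP target. Each run is 300 bases of GRCm38.p6 from RefSeq, 250 bases before to 50 after an annotated start, 5′ to 3′ on the gene's strand. Capitals mark CCAAT (the NF-Y box), GGGCGG (the Sp1 box) and CACGTG (an E-box, added to the search after the data were seen), on either strand. The first Srebf1 run, at chr11:60210422-60210721 on the minus strand, holds the start of the transcript matched to row Srebf1-007. The second, at chr11:60220578-60220877 on the minus strand, holds the start of the transcript matched to row Srebf1-005. Of the 3 Srebf1 windows in the table, the one furthest upstream, at chr11:60222532-60222831 with the start of the transcript of row Srebf1-008, is not shown. Fasn is at chr11:120824498-120824797 on the minus strand, and Insig1 at chr5:28071162-28071461 on the plus strand.
Srebf1, downstream start: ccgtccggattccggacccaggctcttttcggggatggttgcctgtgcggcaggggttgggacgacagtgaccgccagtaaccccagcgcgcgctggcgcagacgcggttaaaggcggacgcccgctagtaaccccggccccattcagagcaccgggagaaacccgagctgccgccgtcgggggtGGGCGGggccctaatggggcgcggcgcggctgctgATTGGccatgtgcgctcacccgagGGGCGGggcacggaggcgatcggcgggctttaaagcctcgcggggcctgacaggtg
Srebf1, middle start: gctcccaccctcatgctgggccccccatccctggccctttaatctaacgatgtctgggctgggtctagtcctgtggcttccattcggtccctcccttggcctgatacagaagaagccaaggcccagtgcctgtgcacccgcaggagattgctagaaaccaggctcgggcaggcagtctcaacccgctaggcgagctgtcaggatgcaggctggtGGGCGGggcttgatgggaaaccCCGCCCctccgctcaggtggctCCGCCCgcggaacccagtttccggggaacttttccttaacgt
Fasn: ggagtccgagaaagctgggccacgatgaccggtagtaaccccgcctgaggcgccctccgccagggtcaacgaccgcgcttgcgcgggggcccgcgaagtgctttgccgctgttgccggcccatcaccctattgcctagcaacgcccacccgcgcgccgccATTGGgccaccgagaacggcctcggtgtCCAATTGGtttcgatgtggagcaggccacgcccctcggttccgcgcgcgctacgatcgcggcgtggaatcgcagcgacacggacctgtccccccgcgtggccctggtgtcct
Insig1: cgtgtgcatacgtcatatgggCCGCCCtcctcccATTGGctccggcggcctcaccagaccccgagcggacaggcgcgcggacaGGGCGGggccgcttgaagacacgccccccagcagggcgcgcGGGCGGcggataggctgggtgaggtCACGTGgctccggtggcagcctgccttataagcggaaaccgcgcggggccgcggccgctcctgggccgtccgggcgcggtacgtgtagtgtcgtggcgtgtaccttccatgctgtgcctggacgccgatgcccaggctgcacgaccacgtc

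The table held 8 such windows for 6 of the 8 genes, and Scd1 and Scd2 had no entry. The NF-Y box was in 6 of the 8 windows and in 37.4% of all 32851 windows, the Sp1 box in 4 and in 35.7%, and the E-box in 1 (Insig1) and in 7.15%. In the Fasn window, the NF-Y letters of the 2 strands overlap by 2 positions, at -62 and -59 from the start. The SREBP element searched, TCACNCCAC, was in none of the 8 and in 1.24% of all windows, which says only that these letters are not in these windows.

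The study asked which mRNAs could be targets of miRNAs, and one pair it considered was Srebf1 with mmu-miR-132, which these libraries do not measure. Its mature 3p strand (chr11:75173723-75173744, plus strand) is shown with the seed, bases 2 to 8, in capitals. Below it is the single stretch complementary to that seed in the 3′ untranslated region of the Srebf1 transcripts that reach the annotated end of the gene, those of rows Srebf1-005 and Srebf1-006 (chr11:60199139-60199161, minus strand, GENCODE annotation of GRCm38), with the 7 matching bases in capitals. A match is a description of sequence and not evidence of a site in use.
mmu-miR-132-3p: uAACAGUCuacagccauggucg
Srebf1 3′ end: ttttctgaatgcaatGACTGTTt

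Of the 7 genes that passed the filter of a mean FPKM of at least 1, only Srebf1 differed between ages at an unadjusted limma p under 0.05, and it was lower in aged muscle. Over the highest-mean rows of all 10161 genes tested, 0.876% were lower and 6.05% were higher in aged libraries by the same criterion. No member had an adjusted p under 0.05 (Benjamini-Hochberg over 37952 transcripts, limma), a threshold that 0.0079% of all transcripts passed, namely 2 rows of Cpne2 and 1 of Sln, named after their values were seen. Scd1 and Fasn had lower means in aged muscle without passing at these rows, Srebf2, Scd2 and Insig1 had higher means, and Acacb differed by 0.04 on the log2 scale. Acaca lay under the filter. The calls over all genes depended on scaling, with 87.4% of them higher in aged libraries as deposited, 66.4% after quantile normalization and 72.8% after median-of-ratios scaling.

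**Figure D1:**
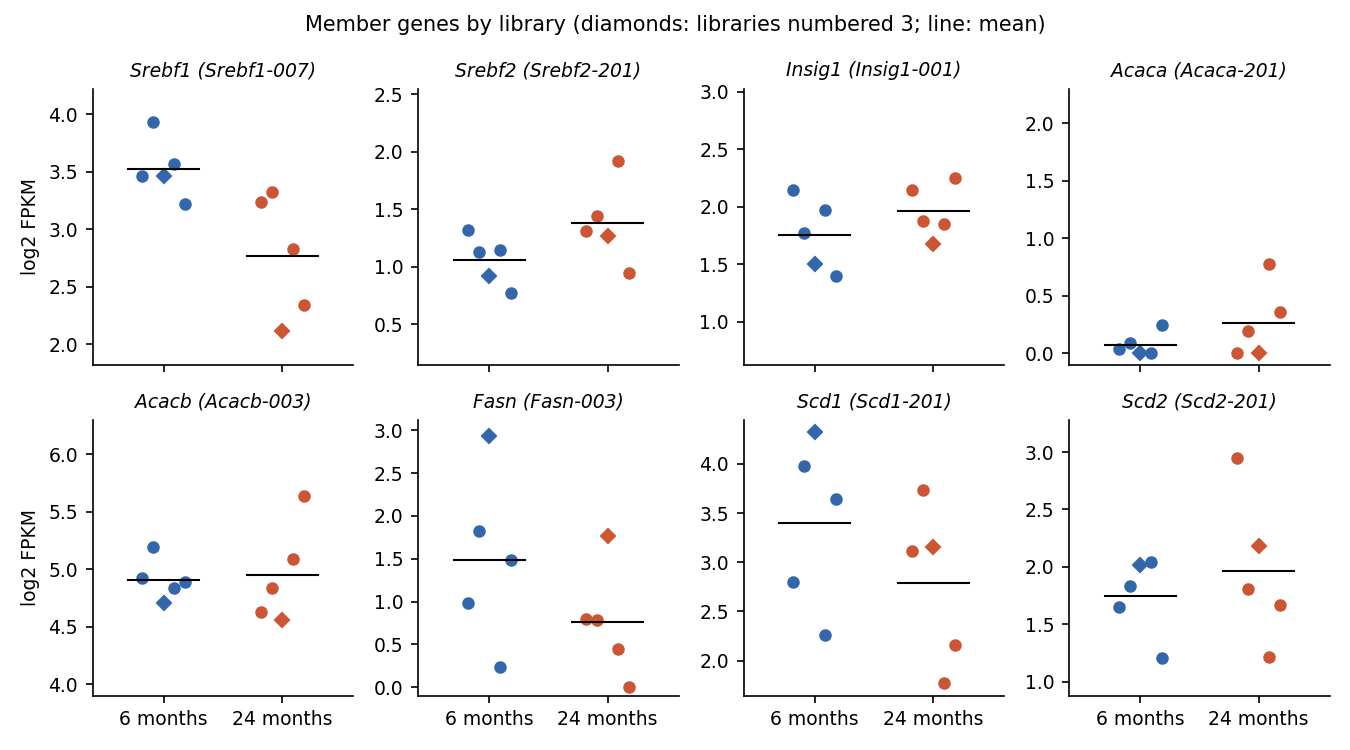
Level of each member gene in log2 FPKM (vertical axis, own range in each panel) in the 5 libraries of 6-month mice and the 5 of 24-month mice, 1 point per library, with diamonds for the libraries numbered 3 and lines for the means. For Srebf1, 3 of the 5 aged points lie below every young point, and in each of the other panels the points of the ages overlap more.

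Srebf1 (chr11:60199089-60222581, minus strand) encodes SREBP-1 in forms that differ in their first exon. Its representative row, Srebf1-007, had levels of 3.46, 3.93, 3.46, 3.57 and 3.22 log2 FPKM in young libraries 1 to 5, against 3.24, 3.32, 2.11, 2.83 and 2.34 in aged libraries 1 to 5. Aged libraries 3, 4 and 5 lay below every young library, and aged 1 and 2 lay within the young range, above young 5. The mean was 3.53 ± 0.26 in young and 2.77 ± 0.54 in aged muscle (SD, n = 5 each), a difference of -0.76 on the log2 scale (SE 0.26, 95% interval -1.34 to -0.18), or 1.69-fold lower. The limma p was 0.0152 unadjusted and 1.0 adjusted, and the 2-sided exact permutation p over the libraries was 0.0238, where 0.00794 is the smallest that 5 against 5 can give. The aged library was the lower one in 5 of 5 same-numbered pairs, and with the number as a block the limma p was 0.00506 (adjusted p = 0.56). The labels do not say what a shared number stands for, so here and below the pairs and the block describe a possible pairing only.

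Srebf1 was measured on 325 to 1207 reads per library at this row. Without both libraries numbered 3 the difference was -0.61 (SE 0.24, limma p = 0.0314, adjusted p = 0.356), and the exact permutation p was 0.0857, with 0.0286 the smallest that 4 against 4 can give.

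The table lists 12 rows for Srebf1, and the aged mean was below the young mean in each of them, by 0.37 to 1.12 on the log2 scale. At an unadjusted limma p under 0.05, 8 of the 12 were lower, against 0.735% of all 37952 transcripts, and none passed after adjustment. These rows share exons and therefore reads, so they are not 12 separate observations. With the replicate block 11 of the 12 passed, all but Srebf1-012, against 1.38% of all transcripts lower in that fit. Besides Srebf1-007, whose transcript stops at 60200463, short of the end of the gene, 2 long rows reach that end. Srebf1-006, matched to a transcript that starts at 60207188, differed by -0.55 (limma p = 0.0349, exact permutation p = 0.0397), and Srebf1-005, which starts at 60220604, by -0.55 (limma p = 0.0341, exact permutation p = 0.0397). Without both libraries numbered 3 they differed by -0.58 and -0.57 (limma p = 0.0415 and 0.0423, each with an exact permutation p of 0.114), beside -0.61 for Srebf1-007.

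The 9 short rows follow the gene from its 3′ end to its 5′ end and show where the libraries numbered 3 depart. At the row nearest the 3′ end, Srebf1-012 (chr11:60200130-60201040), aged 3 had the highest level of all 10 libraries, 4.07 log2 FPKM, and young 3 the next, 3.76. At the row at the 5′ end, Srebf1-008 (chr11:60206950-60222581), aged 3 was listed at 0 and young 3 had 1.46, while the other young libraries had 2.98 to 3.25 and the other aged ones 1.63 to 2.68. The level at Srebf1-012 minus that at Srebf1-008 was 2.30 in young 3 and 4.07 in aged 3, and -0.68 to 0.28 in the other 8 libraries.

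Without both libraries numbered 3 the 12 rows differed by -0.41 to -0.82, and 8 of the 12 had an unadjusted limma p under 0.05, against 1.09% of all transcripts lower by that criterion. In 2 of the 12, Srebf1-008 and Srebf1-009, every remaining aged library lay below every remaining young one against 0.851% of all transcripts. Srebf1-008 then differed by -0.82 (limma p = 0.00462) and Srebf1-009 by -0.66 (limma p = 0.0139), each with an exact permutation p of 0.0286. Rai1 overlaps the 3′ end of Srebf1 on the other strand, and the library kit does not mark strand, so reads of the 2 genes cannot be told apart there. The overlap ends at 60199197, outside the 9 short rows.

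**Figure D2:**
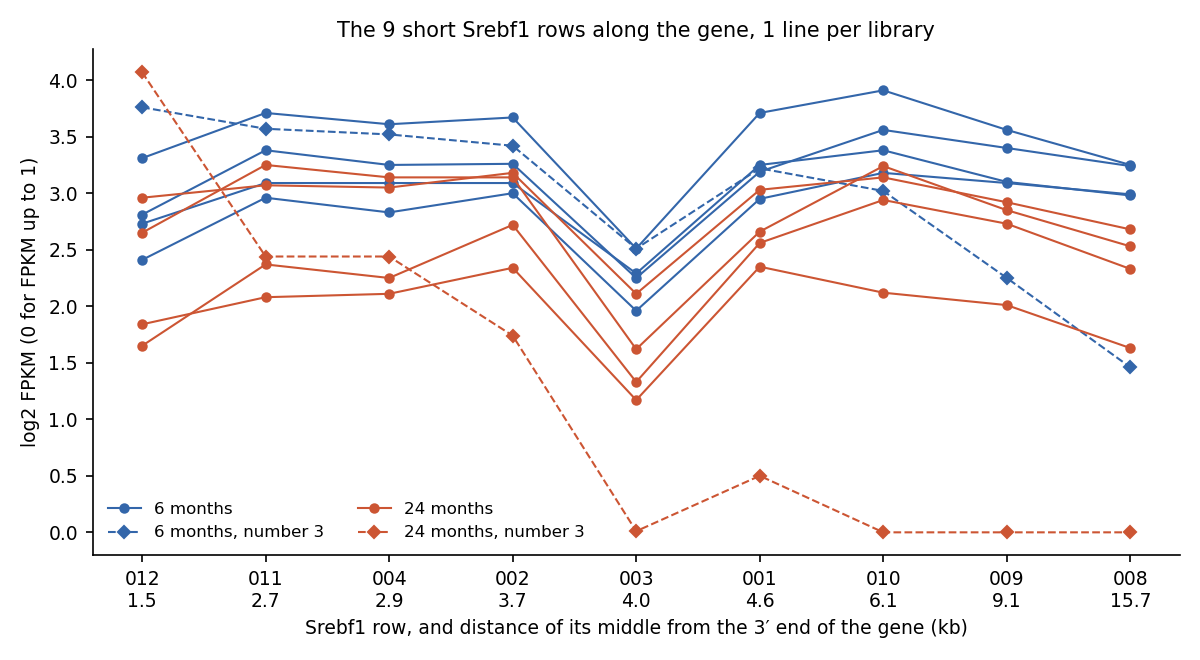
Level in log2 FPKM (vertical axis) of the 9 short Srebf1 rows, ordered by the distance of their middle from the 3′ end of the gene in kb (horizontal axis, evenly spaced), with 1 line per library and dashed lines for the libraries numbered 3. The dashed lines drop from 3.76 and 4.07 at the 3′ end to 1.46 and 0 at the 5′ end, and at that last row the 4 solid young lines (2.98 to 3.25) lie above the 4 solid aged ones (1.63 to 2.68).

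Srebf2 (chr15:82147181-82205379, plus strand), whose product SREBP-2 governs sterol genes, had a higher mean in aged muscle that did not pass the test. Its levels were 1.32, 1.13, 0.92, 1.14 and 0.77 log2 FPKM in young libraries 1 to 5, against 1.31, 1.44, 1.27, 1.92 and 0.94 in aged libraries 1 to 5. Aged 4 was the highest library and young 5 the lowest, and the groups overlapped. The difference was 0.32 (SE 0.20, interval -0.12 to 0.76, limma p = 0.141, exact permutation p = 0.127). Without aged 4 it was 0.18, the smallest over left-out libraries. Without aged 5 it was 0.43 (limma p = 0.0496, exact permutation p = 0.0317), so 1 library decided the side of the threshold.

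Insig1 (chr5:28071363-28078662, plus strand), which encodes the retention protein of the SCAP complex and is itself induced by SREBPs, had 2.15, 1.77, 1.50, 1.97 and 1.40 log2 FPKM in young libraries 1 to 5. In aged libraries 1 to 5 it had 2.15, 1.88, 1.68, 1.85 and 2.25. Aged 1 and 5 lay at or above the highest young library, young 3 and 5 lay below every aged one, and the rest overlapped. The difference was 0.20 (SE 0.19, interval -0.22 to 0.63, limma p = 0.317, exact permutation p = 0.278).

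Acacb (chr5:114146535-114250761, plus strand), the gene of ACC2, had the highest level of the 8 genes at both ages, and no age difference beyond the spread of its libraries was detected. Row Acacb-003 had 4.92, 5.19, 4.71, 4.84 and 4.89 log2 FPKM in young libraries 1 to 5, against 4.63, 4.84, 4.56, 5.09 and 5.64 in aged libraries 1 to 5. Aged 5 was the highest library and aged 3 the lowest, so the aged libraries spread over a wider range that enclosed the young one. The difference was 0.04 (SE 0.22, interval -0.44 to 0.53, limma p = 0.843, exact permutation p = 0.857). This row was matched to a retained-intron transcript of 6680 bases, and the protein-coding rows Acacb-001 and Acacb-201 each differed by 0.05. The short protein-coding row Acacb-002, listed at 0 in both libraries numbered 3, differed by 0.14 (exact permutation p = 0.889). The retained-intron row Acacb-004 was lowest in aged 3, at 2.31 log2 FPKM, and differed by -0.51 (exact permutation p = 0.357), or by -0.07 without the libraries numbered 3.

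Acaca (chr11:84129672-84401651, plus strand), the gene of the cytosolic enzyme ACC1 that feeds fatty acid synthesis, was near the lower limit of the table. Row Acaca-201 was listed at 0 in young 3 and 4 and in aged 1 and 3, and at 0.04, 0.09 and 0.25 log2 FPKM in young 1, 2 and 5. It stood at 0.19, 0.78 and 0.36 in aged 2, 4 and 5. No fold is given, since 0 stands for any FPKM up to 1. The mean FPKM of 0.742, with a listed 0 taken as an FPKM of 0, kept the gene out of the fit, so its exclusion depends on that reading. Of its 6 rows, 3 were listed at 0 in every library.

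Fasn (chr11:120805846-120824547, minus strand), the gene of fatty acid synthase, was low in this tissue and had lower means in aged muscle at all 3 of its rows. At the representative row, Fasn-003, levels were 0.98, 1.83, 2.93, 0.23 and 1.48 log2 FPKM in young libraries 1 to 5, against 0.80, 0.79, 1.77, 0.44 and 0 in aged libraries 1 to 5. Young 3 was the highest library and the groups overlapped. The difference at this row was -0.73 (SE 0.48, interval -1.80 to 0.34, limma p = 0.161, exact permutation p = 0.214), with the aged library lower in 4 of 5 pairs. With the replicate block the limma p was 0.0333, and 0.0839 once both libraries numbered 3 were also left out. The difference was -0.62 without both libraries numbered 3 (limma p = 0.0986, exact permutation p = 0.2), -0.37 without young 3 (limma p = 0.388, exact permutation p = 0.421) and -1.04 without young 4 (limma p = 0.0433, exact permutation p = 0.0714).

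The longest row, Fasn-001, of 9587 bases as recovered from its values, had 0.39, 1.08, 1.25, 0.17 and 1.13 log2 FPKM in young libraries 1 to 5. In aged libraries it was listed at 0 in 1, 3 and 5, at 0.17 in 2 and at 0.23 in 4. Young 4 was the only young library within the aged range. The difference was -0.72, and -0.59 without the libraries numbered 3. This row reached the filter only through the young libraries (mean FPKM 1.82, against 0.459 in aged ones), so its difference is a description and no test of it is given.

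Fasn-002, a retained-intron row of 762 bases, had 0.99, 1.92, 2.28, 1.24 and 1.57 log2 FPKM in young libraries 1 to 5, against 0.63, 1.22, 0, 0.62 and 0.51 in aged libraries 1 to 5. Young 1 was the only young library within the aged range. The difference was -1.01 (limma p = 0.00553, exact permutation p = 0.0159), and -0.69 without the libraries numbered 3 (limma p = 0.0152, exact permutation p = 0.0571). The size of the difference in FPKM summed over the 3 rows depended on how a listed 0 was read. It was -1.27 (limma p = 0.00958, exact permutation p = 0.0159) with a listed 0 taken as an FPKM of 0, and -0.81 (limma p = 0.0203, exact permutation p = 0.0397) with it taken as 1, its upper limit. Without number 3 these were -1.06 and -0.64, each with an exact permutation p of 0.0571. Both sums include Fasn-001, and rows of a gene can share reads, so the sums are not independent of that row. None of the rows passed after adjustment. Because values up to an FPKM of 1 are listed as 0, these differences rest partly on that limit, and Fasn-003 was measured on 26 to 255 reads in the 9 libraries above it.

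Scd1 (chr19:44394455-44407879, minus strand) encodes the desaturase that makes oleate, and it varied more between libraries than between ages. Its levels were 2.80, 3.98, 4.32, 2.26 and 3.64 log2 FPKM in young libraries 1 to 5, against 3.11, 3.73, 3.15, 1.77 and 2.16 in aged libraries 1 to 5. Young 3 was the highest library, and aged 4 and 5 were the lowest. The difference was -0.62 (SE 0.47, interval -1.67 to 0.43, limma p = 0.221, exact permutation p = 0.262), with the aged library lower in 4 of 5 same-numbered pairs. Without both libraries numbered 3 it was -0.48 (limma p = 0.362, exact permutation p = 0.429).

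Scd2 (chr19:44293674-44306864, plus strand), a close relative of Scd1 that is prominent in nervous tissue, had 1.65, 1.83, 2.02, 2.04 and 1.21 log2 FPKM in young libraries 1 to 5. In aged libraries 1 to 5 it had 2.95, 1.81, 2.18, 1.22 and 1.67. Aged 1 stood above all others. The difference was 0.22 (SE 0.31, interval -0.47 to 0.91, limma p = 0.504, exact permutation p = 0.563), and it was -0.03 without aged 1. Scd1 and Scd2 are paralogs, and how reads that map to both were counted is not given in the sources used here.

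On the FPKM scale, which is per length, the order of levels in young muscle was Acacb, Srebf1, Scd1, Insig1, Scd2, Fasn, Srebf2 and Acaca. The ranges of neighbors overlapped except between Acacb and Srebf1 (means 4.91 and 3.53 log2 FPKM), between Scd1 and Insig1 (3.40 and 1.76) and between Srebf2 and Acaca (1.06 and 0.07). In aged muscle Scd1 (2.78) and Srebf1 (2.77) followed Acacb (4.95), then came Insig1 (1.96), Scd2 (1.96), Srebf2 (1.37), Fasn (0.76) and Acaca (0.27). Only the range of Acacb stood clear of its neighbor there.

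Markers of other cell types moved with some of these genes across libraries. The adipocyte list had 11 genes, none of them at 0 in every library, and its summed level was 196 to 473 FPKM in young and 267 to 466 FPKM in aged libraries (2-sided exact permutation p = 0.175). Without Fabp4, which vessels also express, the sum was 20.2 to 139 FPKM in young and 35.5 to 111 FPKM in aged libraries (exact permutation p = 0.421). Of its 11 genes, 10 had a higher mean in aged libraries, as did 61.4% of all genes. Adipoq, the defining adipokine, had 1.77 to 4.16 log2 FPKM in young and 2.11 to 3.82 in aged libraries. It differed by 0.01, or by 0.53 without the libraries numbered 3. Adig (0.74, limma p = 0.0463, exact permutation p = 0.0476) and Fabp4 (0.39, exact permutation p = 0.0873) were higher in 5 of 5 pairs. Lep alone had a lower mean (-0.29).

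Library by library, young 3 had the highest adipocyte sum without Fabp4 (139 FPKM) and the highest Fasn and Scd1, and young 4 had the lowest sum (20.2 FPKM) and the lowest young Fasn and Scd1. At like sums the values were as follows. Young 2, with 80.7 FPKM, had a Fasn level of 1.83 log2 FPKM and a Scd1 level of 3.98, and aged 1, with 80.5 FPKM, had 0.80 and 3.11. Young 1, with 34.4 FPKM, had 0.98 and 2.80, and aged 4, with 35.5 FPKM, had 0.44 and 1.77. The part of fat cells in the Fasn and Scd1 values was not tested.

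The Schwann cell list, 8 genes of myelinating nerve, summed to 20.4 to 145 FPKM in young and 35.9 to 246 FPKM in aged libraries (exact permutation p = 0.27). Aged 1 had both the highest sum and the highest Scd2, and its part in the Scd2 value was not tested. The macrophage list was higher in aged muscle, at 26.7 to 115 FPKM against 13.5 to 36.6 FPKM, with 6 of 6 genes higher in mean (log2 difference 1.36, exact permutation p = 0.0159, and 0.125 when the signs of same-numbered pairs were permuted, where 0.0625 is the smallest that 5 pairs can give). Its Emr1, which encodes the defining marker F4/80, was at 0 in every young library and had a median of 0 in aged ones, and the part of macrophages in any member's difference was not tested.

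The fibroblast list, 4 genes, summed to 142 to 242 FPKM in young and 100 to 247 FPKM in aged libraries (exact permutation p = 0.944), most of it Dcn, which differed by 0.10. Its 2 collagen genes had lower means in aged libraries. Col3a1 fell by 1.03 on the log2 scale (limma p = 0.0189, exact permutation p = 0.0317), was lower in 5 of 5 pairs and differed by -0.96 without the libraries numbered 3. Col1a1 differed by -1.12 (limma p = 0.0694, and 0.0193 with the block, exact permutation p = 0.0714). Pdgfra differed by 0.06 (exact permutation p = 0.738), or by 0.13 without the libraries numbered 3. The 2 collagen genes moved the same way as Srebf1, while Dcn and Pdgfra did not. The part of this list in the Srebf1 difference was not tested. The endothelial list, 4 genes, summed to 28.2 to 36.2 FPKM in young and 23.9 to 46.5 FPKM in aged libraries (exact permutation p = 0.659). Of the 9 fiber markers, 3 had a higher mean in aged libraries. Myh4, named after its values were seen, differed by -0.27 (limma p = 0.078, exact permutation p = 0.0238), and its relation to the members was not tested.

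**Figure D3:**
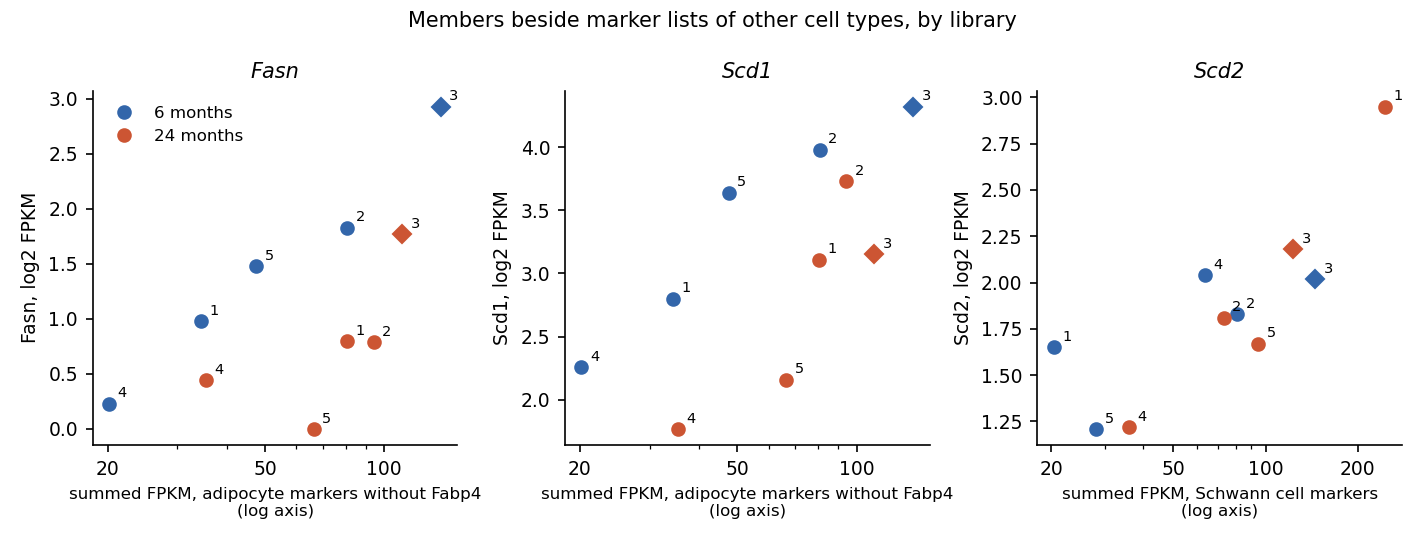
Level of Fasn, Scd1 and Scd2 in log2 FPKM (vertical axes) against the summed FPKM of a marker list in the same library (horizontal axes, log scale), with 1 point per library, its number beside it, and diamonds for number 3. At adipocyte sums of 80.7 (young 2) and 80.5 (aged 1), Fasn stood at 1.83 and 0.80, and the highest Scd2, in aged 1, lies at the highest Schwann sum, 246.

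The rest of the pathway was read from 6 lists of related genes, 86 genes in all, of which 67 passed the filter. At an unadjusted limma p under 0.05, 7 of the 67 (10.4%) were higher in aged muscle, against 6.05% of all genes, and none was lower, against 0.876%. None passed after adjustment. The median differences of the 6 lists were -0.16 to 0.20, beside 0.07 for all genes. Without the libraries numbered 3 they were -0.02 to 0.31, beside 0.14 for all genes, and the transcription partners turned from -0.07 to 0.14. Aged 3 was the lowest library at 30 of the 67 genes. Among those named after their values were seen, Insig2 stood at 0.89 log2 FPKM there and Ube2g2 at 2.83, and Gpam was listed at 0. Their differences of -0.53, -0.40 and -0.37 became 0.13, 0.27 and 0.14 without the libraries numbered 3. The number higher was 15 without the libraries numbered 3, where 13.5% of all genes were higher. It was 3 after quantile normalization (3.55% of all genes) and 4 after median-of-ratios scaling (4.1%). With the replicate block it was 14, beside 9.5% of all genes, made up of the same 7 and Erlin1, Slc25a1, Elovl1, Fads1, Agpat2, Dgat1 and Cyp51. Fads1 and Cyp51, like Nfya, reached the filter only through the aged libraries, so their calls are no support. Among the 64 genes with a mean FPKM of at least 1 at both ages, 7 were higher as fitted, 13 without number 3 and 12 with the block, beside 5.36%, 13.0% and 8.75% of all genes that met the same requirement, which was added after the data were seen. In that fit 1 gene was lower, Mlxipl, beside 1.64% of all genes. Mlxipl, the gene of the carbohydrate-responsive factor ChREBP, differed by -0.42, with a limma p of 0.0488 with the block and 0.0675 without it and an exact permutation p of 0.00794. Its aged libraries all lay below its young ones, as in 0.344% of all genes. The margin was small, with an FPKM of 9.96 in aged 1 and 10.0 in young 3 and 4. Aged 5 was the lowest library, at 2.31 log2 FPKM.

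In SREBP processing, 2 of 12 genes were higher. Counts of this and the next lists stand beside 6.05% of all genes higher and 0.876% lower. Pgrmc1, which encodes a heme-binding membrane protein linked to the INSIG complex, had 1.75, 2.27, 2.14, 2.06 and 1.90 log2 FPKM in young and 2.74, 2.44, 2.45, 2.35 and 2.89 in aged libraries 1 to 5. Every aged library lay above every young one, as in 2.08% of all genes. The difference was 0.55 (SE 0.17, limma p = 0.00791, exact permutation p = 0.00794, the smallest possible). Fbxw7, the ubiquitin ligase component that marks nuclear SREBPs for degradation, differed by 0.64 (SE 0.21, limma p = 0.0129, exact permutation p = 0.0238) and was higher in 5 of 5 pairs. Scap itself differed by 0.05 and Mbtps1, the gene of the site-1 protease, by -0.07.

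Among the transcription partners, 1 of 12 was higher. Sp1, whose box is in 4 of the windows above, had 0.76, 0.71, 0.34, 0.75 and 0.61 log2 FPKM in young and 0.90, 0.80, 0.92, 1.13 and 1.32 in aged libraries 1 to 5. Its groups did not overlap, and the difference was 0.38 (SE 0.16, limma p = 0.0351, exact permutation p = 0.00794). Of the NF-Y subunits, Nfyb differed by -0.36 and Nfyc by -0.03, neither past the threshold, and by -0.07 and -0.05 without the libraries numbered 3. Nfya reached the filter only through the aged libraries (mean FPKM 1.91, against 0.862 in young ones), and its difference of 0.61 (0.76 without number 3) is given with no test.

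In fatty acid synthesis and desaturation, Pgd, a NADPH-producing enzyme of the pentose phosphate pathway, was the 1 of 12 that was higher, by 0.43 (SE 0.18, limma p = 0.0353, exact permutation p = 0.0317). Acly, which supplies cytosolic acetyl-CoA, differed by 0.15, and Elovl6, which elongates palmitate, was listed at 0 in every library. In triglyceride synthesis none of 7 passed as fitted without the block. The largest differences were those of Dgat1 (0.50, limma p = 0.105, and 0.0142 with the block, exact permutation p = 0.0873) and Agpat2 (0.46, limma p = 0.129, and 0.0389 with the block, exact permutation p = 0.151), acyltransferases of the last and an early step. Dgat1 stood apart in aged 3, at 3.62 log2 FPKM, was higher in 5 of 5 pairs, and differed by 0.39 without the libraries numbered 3 (limma p = 0.011, exact permutation p = 0.0286).

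In cholesterol synthesis and uptake, 3 of 17 were higher and none lower, against 6.05% and 0.876% of all genes. The median difference of the list was 0.20, beside 0.07 for all genes. Without the libraries numbered 3 it was 0.09, beside 0.14. Mvd, of the mevalonate pathway, differed by 0.47 (SE 0.18, limma p = 0.0275, exact permutation p = 0.0159). Hsd17b7 differed by 0.79 (SE 0.33, limma p = 0.0342, exact permutation p = 0.0635) and Ebp by 0.61 (SE 0.23, limma p = 0.0238, exact permutation p = 0.0317), both enzymes of the late sterol steps. Each was higher in 5 of 5 pairs. Hmgcs1, a classical SREBP-2 target, differed by -0.04. None of the 7 AMPK subunits passed, with Prkab2 at -0.29 (exact permutation p = 0.46) and Prkab1 at -0.24 (exact permutation p = 0.833), both lowest in aged 3. Without the libraries numbered 3, Prkab2 differed by -0.20 (exact permutation p = 0.229) and Prkab1 by 0.06 (exact permutation p = 0.629), so that its direction turned.

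**Figure D4:**
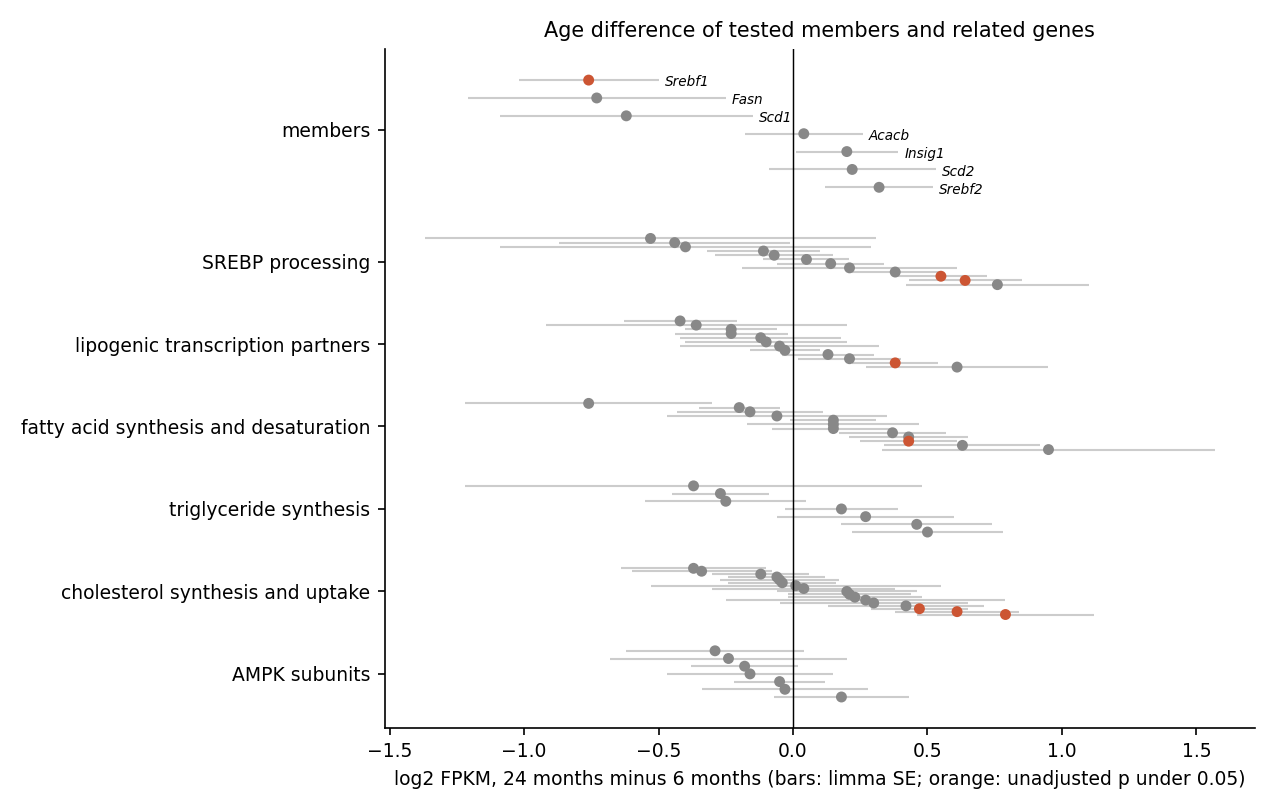
Difference in log2 FPKM between 24-month and 6-month muscle (horizontal axis) of the 7 tested members and of the 67 tested genes of the related lists, with bars for the limma SE and orange for an unadjusted p under 0.05. Srebf1, at -0.76, is the only orange point left of 0, and the 7 orange points of the related lists lie right of it.

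The genes whose pattern over the 10 libraries was most like that of a member were found by Pearson's r of log2 FPKM among 8215 genes above 0 in every library, which left out Fasn and Acaca and gave entries for 6 members. All values come from the same libraries, so they share depth, and r is a description. For Srebf1 they were Aars2 (r = 0.94), Map7d1 (0.94) and Gm12319 (0.93), for Srebf2 Swap70 (0.94), Emp1 (0.89) and Fabp5 (0.89), and for Insig1 Terf2 (0.96), AC107837.1 (0.95) and Gtf2ird1 (0.93). For Acacb they were Nfrkb (0.98), Ece1 (0.96) and Ccdc174 (0.96), for Scd1 Plekhg5 (0.89), Slc38a3 (0.87) and Bnip1 (0.85), and for Scd2 Sema3b (0.90), G0s2 (0.89) and Gpx8 (0.87). No other member was among these genes.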

How the data were processed

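Transcript levels in the gastrocnemius of 5 young and 5 aged male mice were analyzed, 1 library per mouse. The authors purified poly-A RNA, sequenced paired ends, mapped the reads to mm10 with TopHat2 and Bowtie2, computed FPKM and deposited log2 FPKM per transcript, with replicates not pooled. The program that counted the reads is not given in the sources used here. Methods describe a RefSeq gene model, while the deposited log2 values carry Ensembl and Vega transcript names, and an FPKM up to 1 appears as 0.

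Of 92251 rows, 233 had no name and stayed out of the fit. A mean FPKM of 1 or more was required, with a listed 0 taken as 0, which kept 37952 transcripts for limma 3.58.1 (R 4.3.3). P-values were adjusted by the Benjamini-Hochberg method. The fit was checked on simulated independent libraries, which lack the shared departure of the libraries numbered 3. Of 200 transcripts changed by 1, 2 or 3 on the log2 scale it recovered 12.5%, 64% and 91.5%. It also called 4, 11 and 15 unchanged transcripts. The plan assumed FPKM, but the deposited values were already log2 and were used so. Permutation tests were exact and 2-sided. The members and lists were chosen with earlier results of these data known. Named related genes were, in each list, those with an unadjusted p under 0.05, up to 6, and otherwise the 2 with the largest difference; a few further genes were named for their role after their values were seen.

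Depth was recovered from the steps between low values, and 20.4 reads stood for an FPKM of 1 per kb in young 1. Transcripts were matched to GENCODE M21 by symbol and length. Same-numbered young and aged libraries had correlations of 0.13 to 0.694, each over the 0.1 taken as paired. Several other combinations also passed 0.1, so this limit does not tell pairs from other combinations. Other combinations ran from -0.759 to 0.542, and without number 3 the means were 0.265 for same and 0.192 for other numbers; 6 of the 10 libraries correlated best with their own number. Calls that change in a fit with the number as a block are given beside the results or named. The labels do not say what a shared number stands for. Alternatives covered scale, filter, normalization, variance model, row choice, left-out libraries and the block.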

Additional observations from a re-analysis of the deposited data

Results flagged for a closer look

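Among 50 groups of 5 libraries checked for members, named related genes and marker lists, 4 held a library far from the rest by Dixon's criterion, where chance gives about 1 in 20. All were libraries numbered 3, and no member was among them. Of the aged libraries, aged 3 had the highest Dgat1, at 3.62 log2 FPKM, and the lowest Prkab1, listed at 0. Of the young libraries, young 3 had the lowest Prkab2, at 5.83 log2 FPKM, above the 5.21 of aged 3. The summed fibroblast markers were lowest among aged libraries in aged 3 at 6.65 on the log2 scale of FPKM. What set these values apart was not tested.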

How the results depend on the processing

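Srebf1 was lower in aged muscle, by 0.59 to 0.90 on the log2 scale, with an unadjusted p of 0.00506 to 0.0409 under all 24 alternatives run, and its adjusted p was never under 0.333. Fasn kept its direction under all 22 that could be run and passed at -0.73 with the replicate block, -1.04 without young 4 and, for summed rows, -1.27 with a listed 0 as an FPKM of 0 and -0.81 with it as 1, an alternative added after seeing the data (-1.04 to -0.37 over left-out libraries). The block call was lost without both libraries numbered 3 (-0.62). The sums include Fasn-001, which reached the filter only through the young libraries. Srebf2 ranged from 0.18 to 0.43 over left-out libraries, Insig1 from 0.11 to 0.30 and Scd1 from -0.90 to -0.36. Acacb changed sign to -0.01 without young 3, -0.13 without aged 5, -0.02 for summed rows by either reading and -0.09 for the mean of rows (-0.13 to 0.14 over left-out libraries), and Scd2 to -0.03 without aged 1 (up to 0.40). The number of members with an unadjusted p under 0.05 was 2 with the replicate block and 1 to 2 over left-out libraries.

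Of all transcripts, 3 were higher at an adjusted p under 0.05 and 0 lower (279 at an unadjusted p). The number higher was 5 with log2(FPKM + 1) or only transcripts above 0 in all libraries, 0 with quantile normalization, median-of-ratios scaling or the replicate block (with or without number 3), 11 without both libraries numbered 3, and 0 to 23 over left-out libraries. By the 2-fold criteria 217 were higher and 34 lower. These became 104 and 22 with transcripts above 0 in all libraries, and the lower count was 7 without number 3, 18 with the replicate block, 6 with both changes and 12 to 46 over left-out libraries. Related genes higher numbered 3 with quantile normalization (3.55% of all genes) and 4 with median-of-ratios scaling (4.1%). The number was 15 without number 3 (13.5%), 14 with the replicate block (9.5%) and 3 to 11 over left-out libraries. With the block and without number 3 it was also 14, and the share of all genes in that fit is not given. Among genes at the filter in both groups it was 13 without number 3 (13.0%) and 12 with the block (8.75%). Related genes lower numbered 1 with the block and 0 to 1 over left-out libraries (Mid1ip1, without aged 5).

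Of the marker lists, the adipocyte sum differed by 0.27 to 0.59 over left-out libraries (p = 0.0317 by exact permutation without young 3), and the macrophage sum by 1.36 with the block (exact p = 0.125, where 5 pairs cannot go under 0.0625). Fibroblast markers ranged from -0.08 to 0.25 (-0.07 without young 3, -0.04 without young 5, -0.08 without aged 1, -0.05 without aged 5), endothelial markers from -0.03 (without aged 4) to 0.21, and fiber markers from -0.11 to 0.03 (without aged 5). The causes of these changes were not tested. Levels under an FPKM of 1 are listed as 0 and could not be compared.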
